A study of Rattus norvegicus with 36 samples.

Results

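This section describes the messenger RNA of 5 glutamate receptor subunits in the nucleus accumbens of cocaine-conditioned and control rats. The genes are Gria1 (ENSRNOG00000045816), Grin1 (ENSRNOG00000011726), Grin2a (ENSRNOG00000033942), Grin2b (ENSRNOG00000008766) and Grm5 (ENSRNOG00000016429). They were taken by Ensembl identifier from the 32402 genes that every file lists, and all 5 were found. All 5 also passed the filter on low counts, which left 15555 genes for testing. The symbols came with the identifiers as a fixed list, because the files carry identifiers alone and the reference table used here pairs 0 of them with a symbol.

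The animals were Sprague-Dawley rats, 8 weeks old, trained by conditioned place preference, in which a compartment becomes linked to a drug, with 12 days of extinction before reinstatement. The 3 Saline rats received 4 injections of physiological serum, 15 days of withdrawal and 1 further serum injection. The 3 CPPE rats received 4 daily cocaine injections, the same withdrawal and 1 challenge of 5 mg/kg cocaine, after which they preferred the drug side. The 3 nCPPE rats had the same cocaine schedule without showing that preference. The labels call these groups dependent and non dependent. All 9 rats were tested for 18 min right after the last injection. The sources used here do not state the sex of the rats, the dose during conditioning or the criterion that divided CPPE from nCPPE rats.

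Glutamate from cortex, hippocampus, thalamus and amygdala excites the medium spiny neurons of the accumbens through AMPA and NMDA receptors, which are ion channels, and through metabotropic receptors, which act by way of G proteins. Gria1 encodes GluA1, an AMPA receptor subunit whose surface delivery changes with synaptic plasticity. Grin1 encodes GluN1, the subunit that every NMDA receptor needs. Grin2a and Grin2b encode GluN2A and GluN2B, the partners that set how long the NMDA current lasts and how the receptor is regulated. GluN2B prevails early in life and GluN2A gains ground as synapses mature. Grm5 encodes mGlu5, a receptor at the rim of the synapse that couples to phospholipase C and is abundant in striatal spiny neurons. AMPA receptor content and mGlu5 signalling in the accumbens have both been studied widely in cocaine withdrawal and reinstatement.

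Depth was similar between rats. Summed over 4 technical replicates, each rat had 27724289 to 39067715 counts. Across the tested genes, Pearson's r of log2 values between any pair of 8 of the rats was 0.982 to 0.993. The remaining control, Saline 2, correlated with the others at 0.919 to 0.940 and thus stood apart before any receptor gene was considered. Group means and edgeR comparisons that include it are therefore also given without it. No marker of a tissue or cell type could be matched to the identifiers, so the labelled tissue was not checked, and the labels' extraction protocol speaks of both the accumbens and the caudate putamen.

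Levels are given in CPM, the counts of a gene per 1000000 counts of its library, with library totals adjusted by TMM (trimmed mean of M values). CPM does not account for transcript length, so levels are compared between rats and not between genes. In bulk tissue, fewer cells of a type and less RNA per cell cannot be told apart.

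Gria1, the AMPA receptor subunit, was measured at 207, 153 and 237 CPM in Saline 1, 2 and 3. The CPPE rats had 214, 237 and 226 CPM, and the nCPPE rats 236, 195 and 218 CPM. The group means were 199 ± 42.3 CPM in Saline, 226 ± 11.5 in CPPE and 216 ± 20.3 in nCPPE (SD, n = 3 each). Without Saline 2 the Saline mean was 222 ± 20.8 CPM (SD, n = 2), between those of nCPPE and CPPE rats. The groups overlapped, the order CPPE, nCPPE, Saline with all rats had no step larger than the spread, and the lowest value of all belonged to Saline 2.

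Grin1, the obligatory NMDA receptor subunit, was the steadiest of the 5 outside Saline 2. It was at 481, 723 and 492 CPM in the Saline rats, at 512, 521 and 493.2 CPM in CPPE rats, and at 517, 507 and 491 CPM in nCPPE rats. The highest value, in Saline 2, lay far above a band of 481 to 521 CPM that held the other 8 rats. Over these 8 rats its coefficient of variation was 2.85%, where the median of all tested genes was 10.01% and 1.25% of them varied less. Counting error alone gave about 0.800% at this depth. The means were 565 ± 137 CPM in Saline, 509 ± 14.1 in CPPE and 505 ± 13.01 in nCPPE (SD, n = 3 each). No step in this order exceeded the larger SD of the groups it joins, and the Saline SD of 137 CPM included Saline 2. With Saline 2 left out, the Saline mean was 486 ± 7.54 CPM (SD, n = 2), the lowest of the 3 groups instead of the highest.

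Grin2a was the most variable member. The Saline rats had 25.2, 1.86 and 18.9 CPM, the CPPE rats 16.3, 22.0 and 22.0 CPM, and the nCPPE rats 18.3, 10.4 and 24.6 CPM. Its level in Saline 2 rested on 52 counts (exact 95% Poisson interval of the level 1.39 to 2.44 CPM, counting error only), where the other rats had 324 to 867. Without Saline 2 it still varied 2.43-fold between the lowest rat, nCPPE 2, and the highest, Saline 1, with a coefficient of variation of 24.7% beside a counting error of 3.94%. The group means were 20.1 ± 3.32 CPM in CPPE, 17.7 ± 7.11 in nCPPE and 15.3 ± 12.1 in Saline (SD, n = 3 each). The differences between them were below the larger SD of the groups compared. Without Saline 2 the Saline mean was 22.1 ± 4.47 CPM (SD, n = 2), the highest of the 3 groups instead of the lowest.

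Grin2b was measured at 30.8, 16.5 and 36.2 CPM in the Saline rats. The CPPE rats had 36.2, 35.2 and 33.1 CPM, and the nCPPE rats 33.6, 22.8 and 31.5 CPM. The CPPE rats were close together (34.8 ± 1.59 CPM, SD, n = 3), nCPPE 1 lay inside their range and nCPPE 3 just below it. The remaining nCPPE rat, nCPPE 2, was lower than any rat but Saline 2. The means of nCPPE and Saline rats were 29.3 ± 5.73 and 27.8 ± 10.2 CPM (SD, n = 3 each), and no step in the order of the groups exceeded the larger spread. The Saline mean without Saline 2 was 33.5 ± 3.83 CPM (SD, n = 2), between those of nCPPE and CPPE rats.

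Grm5, the metabotropic member, was at 157, 12.4 and 165 CPM in the Saline rats, at 150, 143 and 150 CPM in CPPE rats, and at 167, 130 and 138 CPM in nCPPE rats. Saline 2 had 345 counts of it, and every other rat at least 4053. The means were 148 ± 4.25 CPM in CPPE, 145 ± 19.7 in nCPPE and 111 ± 85.9 in Saline (SD, n = 3 each), so that the Saline mean lay at a level which none of its rats had. Saline 1 and Saline 3 alone had a mean of 161 ± 5.85 CPM (SD, n = 2), the highest of the 3 groups instead of the lowest. Saline 1 and Saline 3 were above 5 of the 6 cocaine rats, and nCPPE 1 was above both.

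**Figure D1:**
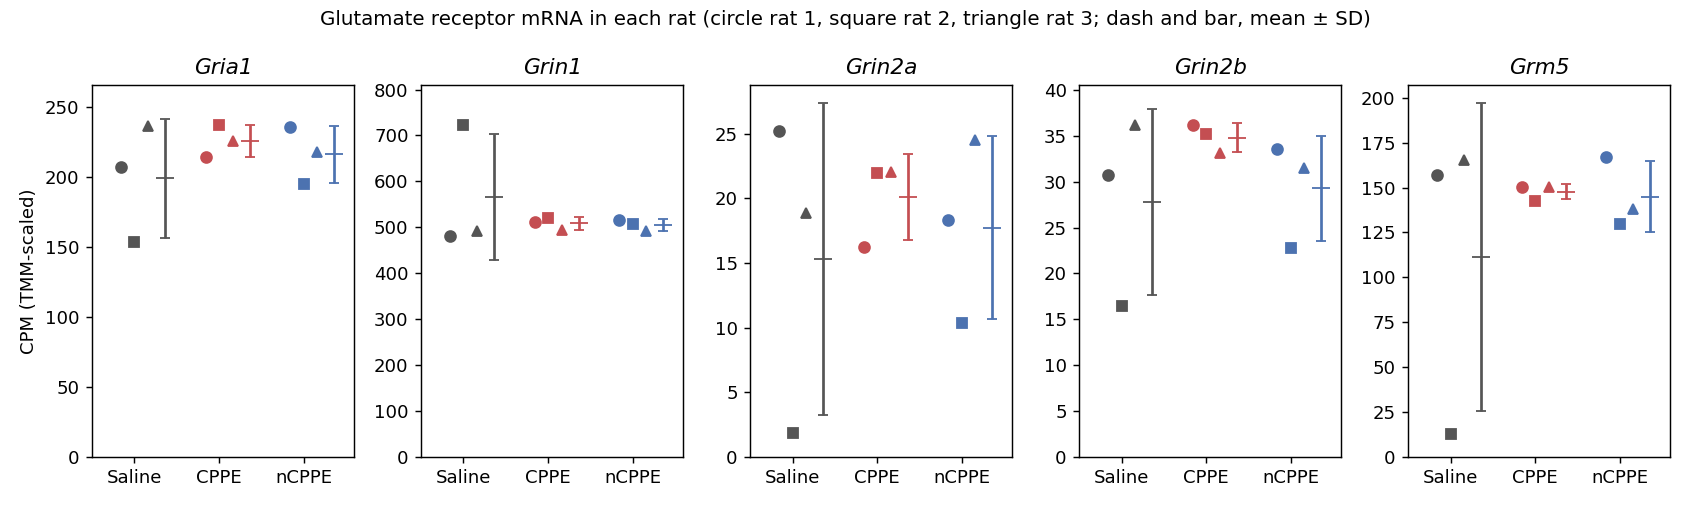
CPM of the 5 genes (vertical axes, each from 0) in the 3 groups (horizontal axes), with a point for each rat and a dash with a bar for the group mean ± SD. Saline 2 (grey square) lies at 1.86 CPM for Grin2a and 12.4 CPM for Grm5, while Grin1 is at 723 CPM in the same rat, above all others.

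Technical replicates of a rat were close to each other. A chi-square test of each gene's 4 technical replicates in each rat gave 1 of 45 results at an unadjusted p below 0.05, and the smallest adjusted p was 0.621 (Benjamini-Hochberg over the 45). The median coefficient of variation between technical replicates was 1.69% for Grin1, 1.72% for Grm5, 2.34% for Gria1, 5.88% for Grin2b and 10.7% for Grin2a. The low level of Grm5 in Saline 2 was shared by its technical replicates, which varied by 12.3%.

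Saline 2 set the spread of the whole group of genes, and it moved them in different directions. Against the mean of the other 8 rats, Grm5 was 12.1-fold lower in Saline 2 and Grin2a 10.6-fold lower. Grin2b was 1.97-fold lower and Gria1 1.44-fold lower, whereas Grin1 was 1.44 times the mean of the others. Over 2-fold shifts were common in this rat, with 20.5% of tested genes more than 2-fold below the mean of the others and 8.37% more than 2-fold above it. Of the 5 receptor genes, 2 were more than 2-fold below and none was more than 2-fold above. The shift of Grm5 was nevertheless far out in this distribution, since 1.08% of tested genes were at least as low, and the same share for Grin2a was 1.41%. For Grin2b, Gria1 and Grin1 the shifts were within the bulk, with 21.0% of genes at least as low as Grin2b, 31.9% at least as low as Gria1 and 26.6% at least as high as Grin1.

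What set Saline 2 apart was not tested. Subunits of the same receptor were not displaced alike, because GluN1 message was higher in this library than in any other and GluN2A message lower than in any other. Both belong to NMDA receptors, so a statement on NMDA receptor message as a whole would have no single direction in this rat.

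**Figure D2:**
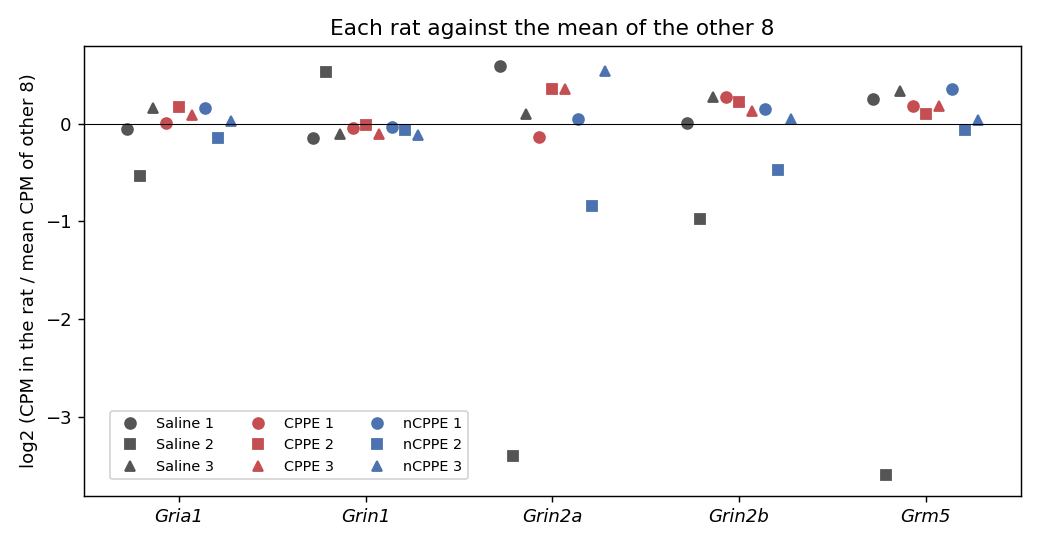
Each point is the log2 ratio of a rat's CPM to the mean CPM of the other 8 rats (vertical axis) for the gene named on the horizontal axis, coloured by group. Saline 2 (grey squares) is 12.1-fold below the others for Grm5 and 10.6-fold for Grin2a, and nCPPE 2 (blue squares) is the lowest of the remaining rats for 4 of the 5 genes.

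Promoter stretches are shown for Grin1 and Grm5, the 2 members with an entry in the table of RefSeq promoters used here. Each is the 250 bases before the RefSeq gene start on build GRCr8, written 5′ to 3′ along the gene. Grin1 lies on the minus strand at chr3:28528755-28529004 and Grm5 on the plus strand at chr1:150733503-150733752.
Grin1: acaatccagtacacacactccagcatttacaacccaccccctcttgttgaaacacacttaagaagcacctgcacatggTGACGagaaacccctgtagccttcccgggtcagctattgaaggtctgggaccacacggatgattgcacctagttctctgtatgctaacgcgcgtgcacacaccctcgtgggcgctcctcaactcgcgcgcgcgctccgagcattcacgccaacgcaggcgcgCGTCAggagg
Grm5: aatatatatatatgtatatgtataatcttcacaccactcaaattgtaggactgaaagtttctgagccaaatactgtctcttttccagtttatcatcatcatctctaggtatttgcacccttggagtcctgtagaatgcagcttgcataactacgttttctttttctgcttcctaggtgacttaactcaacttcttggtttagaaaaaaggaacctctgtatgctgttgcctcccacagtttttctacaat

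Capitals mark TGACG, the short form of the cAMP response element bound by CREB, on either strand. It occurs 2 times in the Grin1 stretch, 172 bases before the start and, on the opposite strand, 10 bases before it. The full element TGACGTCA, the GC box GGGCGG, the TATA box TATAAA and the E box CACGTG were searched on both strands and matched in neither stretch. Of 33465 promoters of the same length, 18.2% held TGACG, 1.59% TGACGTCA, 30.5% GGGCGG, 12.9% TATAAA and 5.59% CACGTG. TGACGTCA contains TGACG, so the first of these shares includes the second. The stretches differed in base composition. Grin1 had 57.6% G and C and 19 CG pairs, and Grm5 36.4% and 1 pair, beside medians of 51.2% and 5 pairs over all promoters. The counts carry no information on which start site was used, and no value here ties these letters to the levels.

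Rats with the same cocaine schedule that did or did not express the preference were compared first. All 5 receptor genes were slightly higher on average in CPPE rats, with log2 differences of 0.01 to 0.25, and none passed the test. In edgeR's quasi-likelihood test with Benjamini-Hochberg adjustment over all genes, 0 of the 5 and 0% of the 15555 tested genes were called at an adjusted p below 0.05. At an unadjusted p below 0.05 there were 84 genes (0.54%) and no receptor gene. DESeq2 called 1 other gene here, and limma-voom with quality weights called 0. The groups overlapped for all 5, where 8.49% of tested genes had groups that did not overlap. The median log2 difference of the 5 was 0.06, and that of all tested genes was -0.0011.

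The difference that came nearest to standing out was in Grin2b, the GluN2B gene, with a log2 difference of 0.25 ± 0.27 (SE) and a 95% interval of -0.36 to 0.87. Its adjusted p was 1.0 in the edgeR fit (range over the alternatives 0.971 to 1.0). Without Saline 2, which enters this comparison through the shared spread, the difference was again 0.25 and the interval narrowed to -0.05 to 0.55. The nCPPE mean rested on nCPPE 2: without that rat the log2 difference was 0.10. For Gria1, Grin2a and Grm5, leaving out nCPPE 2 turned the sign of the difference, to -0.0054, -0.092 and -0.047. The sign of Grin1 turned without CPPE 2 (-0.0061) or nCPPE 3 (-0.0084), and that of Grm5 also without nCPPE 3 (-0.0069).

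The data bounded some differences between CPPE and nCPPE rats better than others. Grin1 was bounded to a log2 difference of -0.36 to 0.39 with all rats and of -0.12 to 0.14 without Saline 2. Gria1 lay between -0.31 and 0.44, and without Saline 2 between -0.13 and 0.26. For Grm5 the interval was -1.53 to 1.59 with all rats, and -0.18 to 0.23 without Saline 2. Grin2a stayed the least certain, at -1.42 to 1.78 and, without Saline 2, -0.42 to 0.78. With all rats, the interval lay inside a 2-fold difference for 3 of the 5 genes, as it did for 76.8% of tested genes.

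CPPE rats were next set against the Saline rats, which had no cocaine. No receptor gene was called, and 4 of the 5 had a higher mean in CPPE rats. The log2 differences were 0.41 ± 0.69 (SE) for Grm5, 0.39 ± 0.71 for Grin2a, 0.32 ± 0.27 for Grin2b and 0.18 ± 0.17 for Gria1, and -0.15 ± 0.17 for Grin1. In edgeR's quasi-likelihood test their adjusted p-values were 0.882 to 0.898, and 0% of tested genes were called. An unadjusted p below 0.05 was found for 139 genes (0.894%). DESeq2 and limma-voom also called 0. None of the 5 had groups without overlap, beside 5.72% of tested genes.

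These directions rested on Saline 2. Without it the log2 differences of CPPE against Saline were -0.12 for Grm5, -0.13 for Grin2a and 0.07 for Grin1, each with the sign turned. Those of Grin2b and Gria1 shrank to 0.06 and 0.03. The adjusted p-values were then 0.853 to 0.971 in edgeR (range over the alternatives 0.534 to 0.977). Against Saline 1 and Saline 3 alone, all 3 CPPE rats were higher for Grin1 and lower for Grm5. For Grin1 the nearest rats, CPPE 3 at 493.2 CPM and Saline 3 at 491.8 CPM, were within counting error of each other. Their exact 95% Poisson intervals were 485 to 501 and 484 to 500 CPM. For Grm5 the intervals of CPPE 3 and Saline 1 also overlapped, at 146 to 155 and 152 to 162 CPM. A count of 2 in 5 is to be read beside 25.3% of tested genes whose values did not overlap in the same comparison.

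The nCPPE rats were set against the same Saline rats, so this comparison shares its controls with the previous one. Again no receptor gene was called. The log2 differences were 0.38 ± 0.69 (SE) for Grm5, 0.21 ± 0.71 for Grin2a, 0.12 ± 0.17 for Gria1, 0.07 ± 0.27 for Grin2b and -0.16 ± 0.17 for Grin1, and edgeR's adjusted p-values were 0.937 to 0.955. The sign of Grin2a turned without nCPPE 3 (-0.097) and that of Grin2b without nCPPE 1 (-0.036). At an unadjusted p below 0.05 there were 179 tested genes, and 0% of the 15555 passed after adjustment. DESeq2 called 1 gene that is not a receptor gene, and limma-voom 0. Groups overlapped for all 5 genes, beside 4.02% of tested genes without overlap.

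Without Saline 2 every one of these 5 differences turned its sign. They became -0.15 for Grm5, -0.32 for Grin2a, -0.04 for Gria1, -0.19 for Grin2b and 0.05 for Grin1. The adjusted p-values in edgeR were then 0.820 to 0.953 (range over the alternatives 0.603 to 0.998). The groups still overlapped for all 5, while 24.8% of tested genes did not overlap in this smaller set.

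Taking both cocaine groups as 6 rats against Saline gave the same picture from the same values. Log2 differences ranged from -0.16 ± 0.14 (SE) for Grin1 to 0.39 ± 0.60 for Grm5, and edgeR's adjusted p-values were 0.825 to 0.871. Calls covered no receptor gene and 0% of tested genes, with 193 (1.24%) at an unadjusted p below 0.05. DESeq2 called 1 other gene and limma-voom 0. Groups did not overlap for 1.03% of genes, none of them among these 5. Without Saline 2 all 5 differences turned their sign, to values between -0.22 for Grin2a and 0.06 for Grin1. None of the 5 was then without overlap, beside 11.4% of tested genes. The median log2 difference of the 5 genes was 0.20 with all rats and -0.07 without Saline 2, where all tested genes had medians of -0.011 and 0.0069.

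Without Saline 2 the comparison of all cocaine rats with Saline was narrow for most of these genes. Grin1 was bounded between -0.07 and 0.19, Gria1 between -0.20 and 0.19, Grm5 between -0.34 and 0.07, Grin2b between -0.37 and 0.23, and Grin2a between -0.82 and 0.37 (log2, 95% intervals). The intervals rest on 2 Saline rats and on a spread shared by all groups. They bound differences of these sizes and do not show that the groups were alike.

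**Figure D3:**
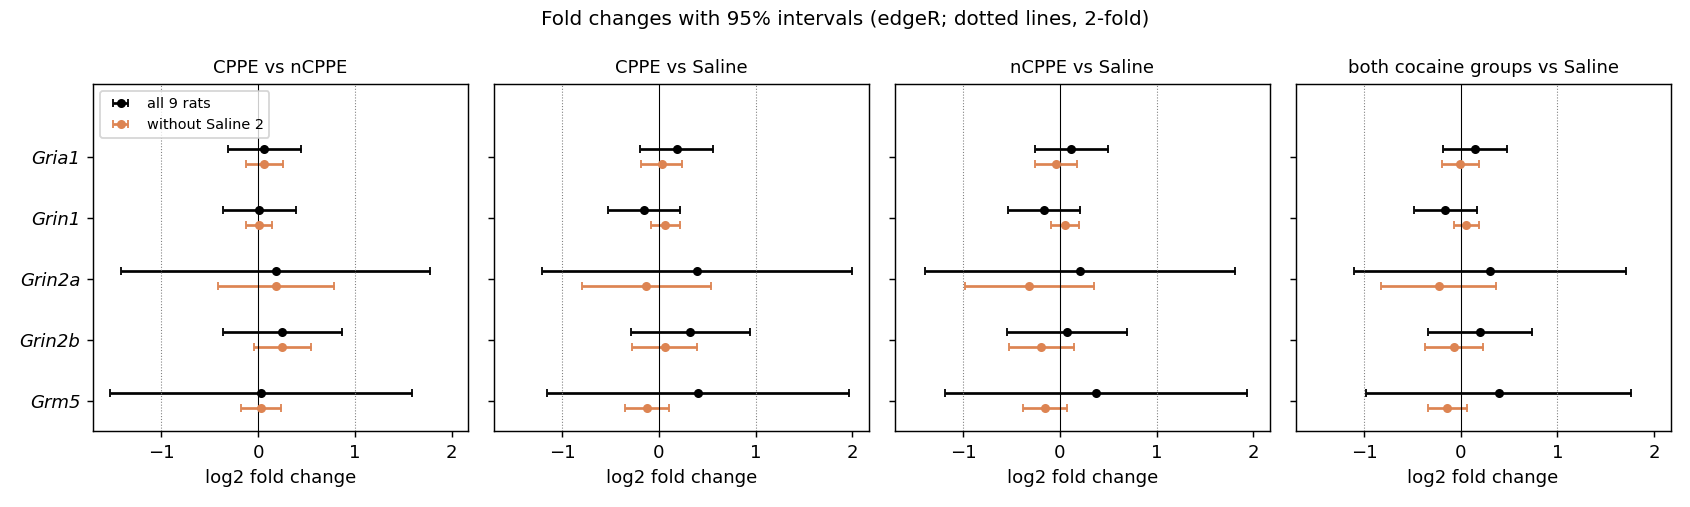
Log2 fold changes (horizontal axes) of the 5 genes with 95% intervals from edgeR, for the 4 comparisons named above the panels, with all 9 rats (black) and without Saline 2 (orange). Every interval includes 0, and those of Grm5 shrink most when Saline 2 is left out, from -1.53 to 1.59 to -0.18 to 0.23 in the first panel.

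The spread that edgeR estimated for each gene before the test showed the same. edgeR's biological coefficient of variation with all rats was 59.2% for Grin2a and 57.0% for Grm5, against a median of 22.3% over tested genes. Grin2b had 24.9%, Gria1 16.9% and Grin1 16.7%. Without Saline 2 the values were 22.9% for Grin2a, 8.45% for Grm5, 11.8% for Grin2b, 8.04% for Gria1 and 5.91% for Grin1, with a median of 10.1%. Grm5 thus went from among the noisier genes to below the median, whereas Grin2a was above it either way.

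The balance between subunits was examined as ratios of counts within a rat, which do not depend on how libraries are scaled. They also carry transcript length, so a ratio is compared between rats and its size has no meaning of its own. The ratio of Grin2a to Grin2b, the usual index of NMDA receptor subunit makeup, was 0.820, 0.113 and 0.522 in the Saline rats. It was 0.449, 0.626 and 0.665 in CPPE rats and 0.545, 0.455 and 0.779 in nCPPE rats. The means of CPPE and nCPPE rats, 0.580 ± 0.115 and 0.593 ± 0.167 (SD, n = 3 each), were within the spread of each other, and the low value of Saline 2 stood alone.

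The ratio of Gria1 to Grin1, which sets GluA1 against GluN1 message, was 0.385 to 0.481 in the 8 rats other than Saline 2, where it was 0.212. Other AMPA receptor subunits could not be identified and were not examined here, so it does not stand for AMPA receptor message as a whole. CPPE rats had 0.444 ± 0.0221 and nCPPE rats 0.428 ± 0.0379 (SD, n = 3 each), with overlapping values.

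The ratio of Grm5 to Grin1 was 0.326 in Saline 1 and 0.336 in Saline 3, and 0.0171 in Saline 2. CPPE rats had 0.293, 0.274 and 0.304, and nCPPE rats 0.324, 0.256 and 0.281. Saline 1 and Saline 3 were above all 6 cocaine rats, though nCPPE 1 came within counting error of Saline 1 (95% intervals 0.314 to 0.333 and 0.315 to 0.337, exact binomial, counting error only). With Saline 2 the groups had no such order, and no test was made of these ratios. This was 1 of the 3 ratios examined. For single genes, 11.4% of those tested did not overlap between cocaine and Saline rats without Saline 2. No such share was computed for ratios.

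**Figure D4:**
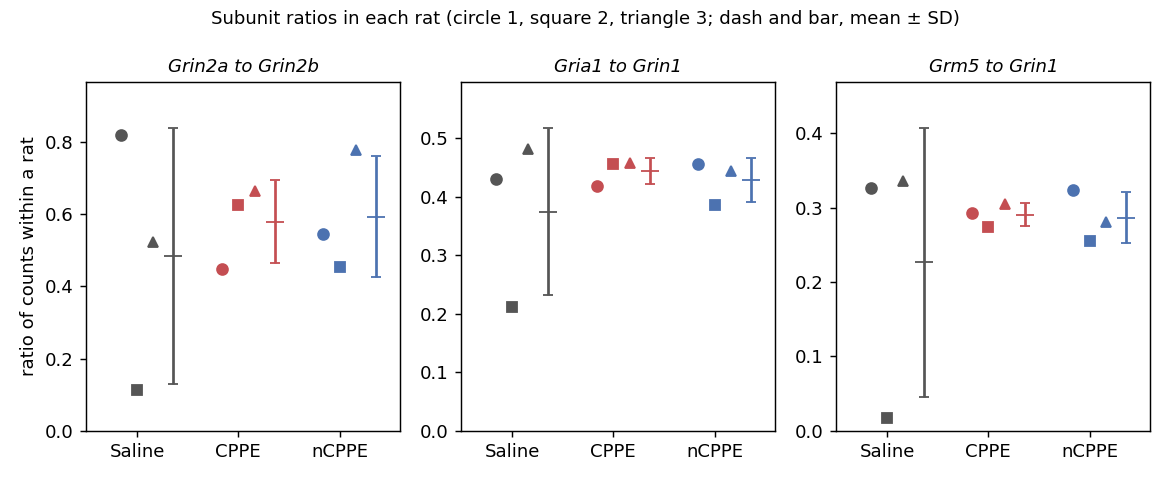
Ratio of counts of the named pair of genes (vertical axes, from 0) in each rat by group, with group mean ± SD. CPPE and nCPPE rats overlap in all 3 panels, and Saline 2 (grey square) is lowest in each, at 0.113, 0.212 and 0.0171.

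Whether the receptor genes went up and down together between animals was tested over the 8 rats other than Saline 2. None of the 10 pairs passed after adjustment (Pearson's r of log2 CPM, exact two-sided permutation test, Benjamini-Hochberg over 10 pairs). The strongest was Gria1 with Grin2b, at r = 0.802 (exact permutation p = 0.0124, adjusted 0.124) and Spearman's rho = 0.619 (exact permutation p = 0.115, adjusted 0.575). Without the 2 rats farthest from the median of Gria1, Saline 1 and nCPPE 2, r was 0.249, so its size depended on those rats. Leaving out extreme values also narrows the range of Gria1, so the drop cannot tell whether the relation rested on them alone. Grin2b with Grm5 followed, with r = 0.666 (exact permutation p = 0.0565, adjusted 0.282), rho = 0.381 (exact permutation p = 0.360, adjusted 0.600), and r = 0.294 without the 2 farthest rats.

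The NMDA receptor partners Grin2a and Grin2b had r = 0.615 over the 8 rats (exact permutation p = 0.127, adjusted 0.318) and rho = -0.262 (exact permutation p = 0.536, adjusted 0.766). Without CPPE 1 and nCPPE 2, the farthest from the median of Grin2a, r was -0.754, so the sign depended on those rats. Leaving out nCPPE 2 alone gave -0.815 over 7 rats. Grin1 had r between -0.427 and 0.286 with the other 4 genes, none of which passed. With Grin2a its rho was -0.619 (exact permutation p = 0.115, adjusted 0.575), the same size as the rho of Gria1 and Grin2b. Over the 7 rats without nCPPE 2, r of Grin1 was -0.588 with Grin2a, 0.602 with Grin2b and 0.551 with Gria1. All rats share the library scaling, so these values describe the animals and the scaling together.

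One cocaine rat, nCPPE 2, was the lowest of the 8 rats for Gria1, Grin2a, Grin2b and Grm5. In this rat 19.5% of all tested genes were the lowest of the 8 and 17.8% the highest. Its Grin1 level of 507 CPM lay inside the band of the other rats. Leaving it out brought r of Gria1 and Grin2b to 0.557 over 7 rats.

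The genes most alike in pattern were sought for Grin1 and Grin2b among 13766 others with a mean of at least 1 CPM, over the 8 rats other than Saline 2. ENSRNOG00000050404 came closest to Grin1, with r = 0.968 and rho = 0.976, and ENSRNOG00000055293 closest to Grin2b, with r = 0.965 and rho = 0.857. Each is the highest of 13766 values over 8 rats and is given as a description. In Saline 2, which was not used to find them, the first was at 1.71 times the mean of the other rats and the second at 0.290 times, the same sides of the mean as Grin1 and Grin2b. The shares of all tested genes on these sides were not counted, so the match is likewise a description.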

How the data were processed

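RNA from the nucleus accumbens of 9 rats was sequenced in 4 technical replicates each, 36 files. Oligo(dT) selection started from 300 ng of total RNA and the TruSeq kit keeps strand, per the labels' protocols. The authors used bcl2fastq 2.18.0.12, STAR and HTSeq 0.5.3, per the submitters' processing notes. The genome build, annotation, STAR version and strand setting were not given in the sources used here. How reads of overlapping genes were treated is therefore not known. The deposited values are raw counts per Ensembl gene.

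Technical replicates were summed per rat. edgeR 4.0.16 in R 4.3.3 (filterByExpr, TMM, glmQLFit and glmQLFTest) was fitted over all genes and all 9 rats with group as the factor. P-values were Benjamini-Hochberg adjusted over 15555 genes, with calls below 0.05. Each rat counted once. Nothing in the labels beyond rat numbers describes litters or days. Correlations used log2 CPM with a prior count of 2. Intervals of levels and ratios cover counting error only. DESeq2 1.42.0, limma 3.58.1 (voom with quality weights), other scalings and filters, a replicate block, and leaving out each rat were tried as alternatives.

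The 5 genes are all named. Of genes alike in pattern, the closest to Grin1 and to Grin2b was taken. The lists of other glutamate receptors, auxiliary subunits, scaffolds and cell type markers were not tested, because 0 identifiers could be paired with symbols. Members, lists and tests were chosen with earlier results of these data known, Saline 2 standing apart included.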

Additional observations from a re-analysis of the deposited data

Results flagged for a closer look

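Grin2b in nCPPE 2 lay far from the other cocaine rats. It was at 22.8 CPM, while the other 5 ranged from 31.5 to 36.2 CPM. Its distance to the next rat made up 0.649 of the span of all 6, above the limit of 0.625 for 6 values. This was 1 of 8 measures examined this way (5 levels and 3 ratios), of which chance alone would mark about 1 in 20. The same rat was the lowest of the 6 for Gria1, Grin2a and Grm5 without passing the limit. What set it apart was not tested.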

How the results depend on the processing

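Over 17 alternatives none of the 5 genes was called in any comparison, and the smallest adjusted p of any of them was 0.464. edgeR called 0 genes in each of the 4 comparisons under every alternative run with it, and so did limma-voom. Without Saline 2, edgeR gave 556 to 1055 genes (3.53% to 6.7%) at an unadjusted p below 0.05 in the 4 comparisons. With all rats it gave 84 to 193 (0.54% to 1.24%). Chance alone would put a share of about 0.05 of genes there. The counts with all rats lay below that share, and those without Saline 2 lay around it. DESeq2 called 1 gene for CPPE against nCPPE and 1 for nCPPE against Saline, ENSRNOG00000016164 in both, and 1 for cocaine against Saline, ENSRNOG00000008118. These were named after their values were seen and are not among the 5.

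Directions against Saline depended on Saline 2. With limma-voom, which gives divergent libraries less weight, log2 differences turned their sign for CPPE against Saline to 0.052 (Grin1), -0.16 (Grin2a) and -0.082 (Grm5). For nCPPE against Saline they turned to 0.066 (Grin1), -0.37 (Grin2a), -0.11 (Grin2b) and -0.044 (Grm5), and for cocaine against Saline to 0.059, -0.26, -0.014 and -0.063 in the same order. For CPPE against nCPPE they turned to -0.014 (Grin1) and -0.038 (Grm5).

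Leaving out each rat in turn gave the following ranges. For CPPE against nCPPE they were -0.0054 to 0.13 (Gria1), -0.0084 to 0.033 (Grin1), -0.092 to 0.49 (Grin2a), 0.10 to 0.36 (Grin2b) and -0.047 to 0.14 (Grm5). For CPPE against Saline they were 0.027 to 0.33, -0.25 to 0.065, -0.13 to 0.95, 0.058 to 0.56 and -0.12 to 0.80 in the same order. For nCPPE against Saline they were -0.036 to 0.26, -0.26 to 0.054, -0.32 to 0.77, -0.19 to 0.31 and -0.15 to 0.78. For cocaine against Saline they were -0.0047 to 0.29, -0.25 to 0.059, -0.22 to 0.86, -0.067 to 0.43 and -0.14 to 0.79. The number of the 5 genes without overlap between CPPE and Saline was 2 without Saline 2, beside 25.3% of tested genes. The count was added after seeing the data.

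With the replicate number as a block edgeR called 0 genes in each comparison and no direction of the 5 genes changed. Several log2 differences moved by over 1.5 times. Against Saline, that of Grin2a became 0.82 in CPPE, 0.42 in nCPPE and 0.62 in all cocaine rats, and that of Grm5 0.73, 0.68 and 0.70. Between CPPE and nCPPE rats they became 0.40 and 0.054. Correlations of same-numbered rats' deviations ran from -0.447 to 0.257, and 3 of 18 best matches between groups had the same number, so the numbers were not taken as pairs.

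With all 9 rats, 7 of the 10 pairs had an adjusted p below 0.05 (0.0138 to 0.0290, permutation test), against none without Saline 2. Saline 2 was known beforehand to stand apart, so these p-values weigh that library. They do not show that the genes moved together between animals. The value of r was -0.975 (Grin1 and Grm5, adjusted permutation p = 0.0536, beside r = -0.119 over 8 rats), -0.829 (Gria1 and Grin1), 0.905 (Gria1 and Grin2a), 0.947 (Gria1 and Grin2b), 0.903 (Gria1 and Grm5), -0.952 (Grin1 and Grin2a), -0.812 (Grin1 and Grin2b), 0.905 (Grin2a and Grin2b), 0.951 (Grin2a and Grm5) and 0.874 (Grin2b and Grm5). With library totals alone, r of Grin1 and Grin2b over 8 rats was -0.137. Other scalings and filters changed no direction or call of the 5 genes, and no group mean of them moved by more than 1 SD. Depth limits Grin2a most, with 52 counts in Saline 2.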
